A study of Drosophila melanogaster with 12 samples.

Results

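The amylases, trehalase and the alpha-glucosidase gene tobi were followed as 5 genes in adult midguts of Drosophila melanogaster: Amy-p and Amy-d, the paired alpha-amylase genes, Amyrel, their diverged relative, Treh, the trehalase gene, and tobi. They were taken by symbol from a table of 17558 genes. The rule itself uses no measured value, but the 5 genes were chosen with earlier results of these data known. All 5 were found and all 5 were among the 9686 genes expressed highly enough to be tested. The 12 midgut libraries form 4 groups of 3, defined by sex and by the presence of dsxRNAi or of the control constructs.

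In both dsxRNAi groups an RNA interference construct against dsx stood opposite mex1-Gal4, the enterocyte driver, with tub-Gal80ts over a wild-type homolog. Both control groups carried mex1-Gal4 over a wild-type homolog and UAS-GFP opposite tub-Gal80ts. The labels give the X chromosome of every group as y[1] v[1] / w[*]. dsx encodes the sex-specific transcription factors at the end of the somatic sex determination pathway, and Gal80ts blocks Gal4 at low temperature. Flies were virgins, held 6 days at 18 degrees C and then 4 days at 29 degrees C, and were sampled on day 10. In the labelled genotypes dsxRNAi sits opposite mex1-Gal4, on the chromosome that also carries Amy-p, Amy-d, Amyrel and Treh. Effects of dsxRNAi and of the chromosomes that came with it therefore cannot be told apart from these groups. The labels do not say whether replicate libraries came from separate sets of flies, so p-values measure only the spread between these libraries.

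Alpha-amylases are secreted by enterocytes into the gut lumen, where they cut starch and glycogen into maltose and short glucose chains, and maltases then release glucose. Trehalase splits trehalose, the main blood sugar of insects, into glucose. tobi was named as a target of brain insulin: in flies its transcript responds to insulin-producing cells and to Akh, and is raised by dietary protein and lowered by dietary sugar. Amylase genes of the fly gut are known to be repressed by dietary sugar, through the sugar sensor Mondo, the factor Sugarbabe and the Activin ligand Dawdle.

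On build dm6, Amy-p (FBgn0000079, 2R, 17118636 to 17120303, minus strand) and Amy-d (FBgn0000078, 2R, 17124764 to 17126369, plus strand) lie back to back with a gap of 4460 bp. Amyrel (FBgn0020506, minus strand) lies apart from them at 2R, 16651095 to 16652699. Treh (FBgn0003748, plus strand) spans 2R, 21074018 to 21088945, and tobi (FBgn0261575, minus strand) spans 3R, 25344761 to 25346921. Amy-p and Amy-d are near-identical copies, so reads could be split or lost between them, and each copy's own level is uncertain. Genes on the opposite strand overlap Treh by 560 bp (Rbpn-5, mean 25.4 normalised CPM), tobi by 78 bp (rha, 0.542 normalised CPM) and Amyrel by 31 bp (gprs, 0.00845 normalised CPM). The library kit keeps strand, but the strand setting of the counting is not given in the sources used here.

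Total counts ran from 36212113 to 45068874 per library, and no library held fewer than 1220 counts for any of the 5 genes. Levels are given as normalised CPM, a gene's count relative to its library's total after scaling by the trimmed mean of M values. The scaling factors were 0.894, 0.865 and 0.935 in dsxRNAi males, against 1.03, 1.07 and 1.11 in control males. They ran from 0.956 to 1.14 in the female libraries. Scaling thus raised dsxRNAi males relative to control males for every gene. Overlap of groups was judged on normalised CPM, or on shares of counts where shares are given. The target gene dsx stood at 35.2, 43.1 and 41.2 normalised CPM in dsxRNAi males, against 70.1, 59.1 and 53.2 in control males (log2 -0.61, 95% interval -0.88 to -0.34, adjusted p = 0.00643 by edgeR). In dsxRNAi females it stood at 16.5, 22.3 and 19.9 normalised CPM, against 18.6, 20.3 and 21.3 in control females, so no difference was detectable there (adjusted p = 0.946 by edgeR's quasi-likelihood test). The enterocyte markers mex1, Myo31DF and nub were present in every library, with a summed level of 823 to 979.6 normalised CPM, and none of the 3 was called in any comparison by edgeR at an adjusted p of 0.05 (1 was called higher in dsxRNAi males by DESeq2, and by edgeR without dsxRNAi male library 3). Male accessory gland genes had 3961 counts in control male library 1 and at most 5 in every other library. Counts come from whole midguts, where fewer cells of a type and less RNA per cell cannot be told apart.

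The amylase pair was among the most abundant messages of the midgut, and Amyrel was scarce beside it. By mean normalised CPM, Amy-p ranked 6 and Amy-d 9 among 9686 genes, tobi ranked 25, Treh 210 and Amyrel 1466. Per kilobase of annotated exon, control males held 7914 ± 455 normalised CPM of Amy-p, 7147 ± 390 of Amy-d and 2383 ± 37.4 of tobi (SD, n = 3). On the same scale they held 148 ± 4.88 of Treh and 52.1 ± 1.43 of Amyrel. The pair alone took 2.36 ± 0.0817% of all counts in dsxRNAi females and 2.15 ± 0.159% in control females. It took 3.77 ± 0.684% in dsxRNAi males and 2.64 ± 0.164% in control males, with no overlap between the male libraries.

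**Figure D1:**
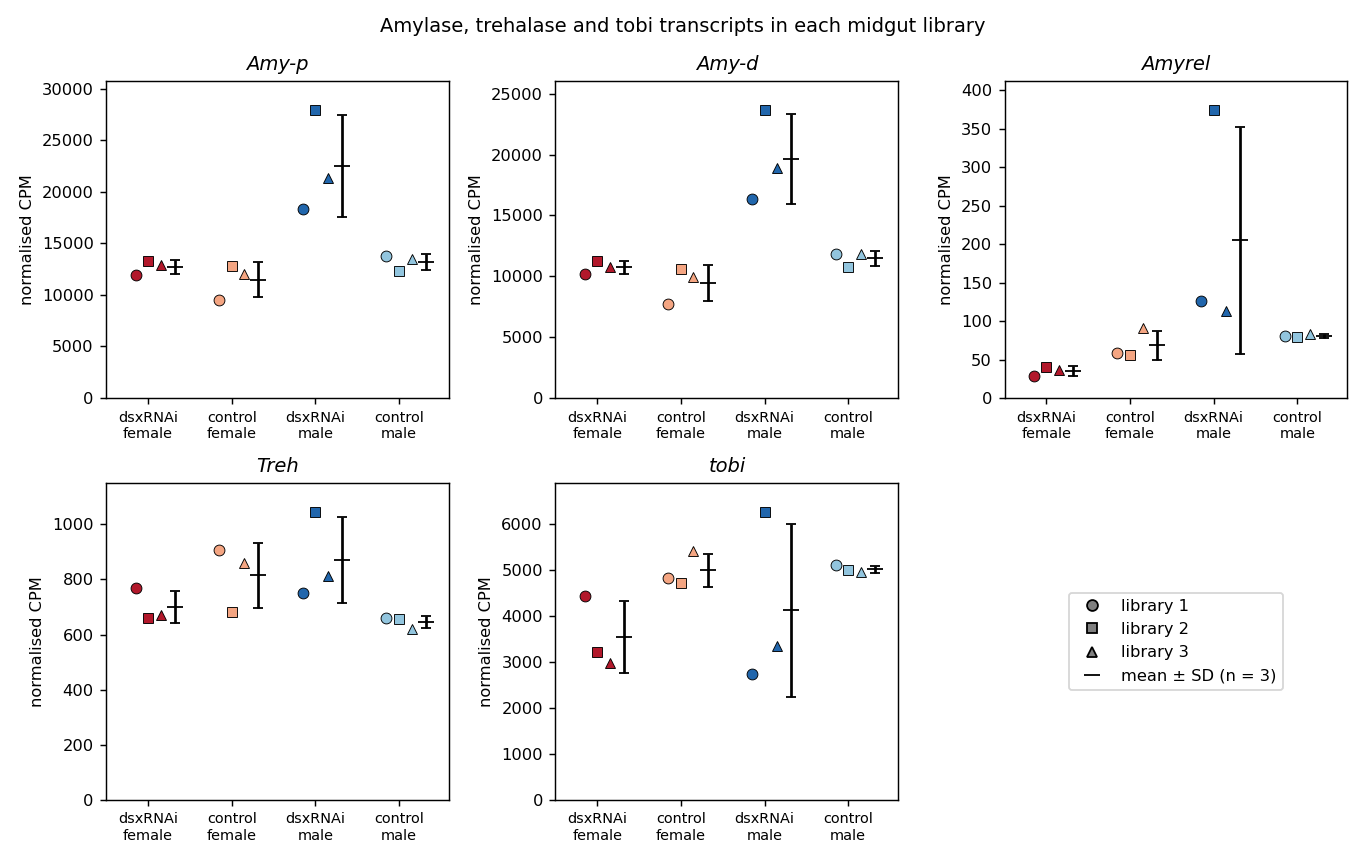
Normalised CPM of Amy-p, Amy-d, Amyrel, Treh and tobi in the 12 libraries, on linear axes from 0; each symbol is a library and the bar is mean ± SD of 3. dsxRNAi male library 2 is the highest library for all 5 genes, and the other dsxRNAi male libraries lie above the control males for Amy-p, Amy-d, Amyrel and Treh but below them for tobi.

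In males, both amylase genes were higher under dsxRNAi, and no other of the 5 genes passed the test. Amy-p stood at 18296, 27948 and 21335 normalised CPM in dsxRNAi males, against 13757, 12336 and 13509.6 in control males. Every dsxRNAi male library lay above every control male library, and library 2 was the highest. The fitted change was 1.71-fold (log2 0.77, 95% interval 0.42 to 1.13, adjusted p = 0.00804 by edgeR). Amy-d stood at 16377, 23676 and 18863 normalised CPM in dsxRNAi males, against 11869, 10756 and 11810.2 in control males. It too was 1.71-fold higher without overlap (log2 0.77, 95% interval 0.44 to 1.11, adjusted p = 0.00572 by edgeR). The exact two-sided permutation test gave p = 0.1 for each copy, the smallest that 3 libraries against 3 allow. With dsxRNAi male library 2 left out, the log2 changes were 0.60 for Amy-p and 0.63 for Amy-d, and both calls held (adjusted p = 0.0164 and 0.0124 by edgeR).

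Amyrel, the diverged amylase relative, had 126, 374 and 114 normalised CPM in dsxRNAi males, against 80.5, 78.6 and 83.1 in control males. The groups did not overlap, but dsxRNAi male library 2 held more than the other libraries of its group together, and the group's SD was 147 around a mean of 205. The fitted log2 change of 1.34 did not pass the threshold (95% interval 0.38 to 2.31, adjusted p = 0.0679 by edgeR). It was 0.58 without dsxRNAi male library 2 (adjusted p = 0.0876 by edgeR), and 1.66, and called, without library 3 (adjusted p = 0.0325 by edgeR). DESeq2 called it with all libraries (adjusted p = 0.0266).

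Treh, whose enzyme splits trehalose, stood at 749.7, 1047 and 812 normalised CPM in dsxRNAi males, against 661, 655 and 621 in control males. On this scale the groups did not overlap, and the log2 change of 0.43 lay just outside the threshold (95% interval 0.14 to 0.72, adjusted p = 0.0516 by edgeR). As shares of all counts before scaling, the groups did overlap. Treh took 0.0670%, 0.0905% and 0.0760% in dsxRNAi males, against 0.0683%, 0.0701% and 0.0687% in control males. Treh was called by DESeq2 (adjusted p = 0.0116) and without dsxRNAi male library 1 (log2 0.55, adjusted p = 0.0345 by edgeR). The log2 change was 0.29 without dsxRNAi male library 2 (adjusted p = 0.159 by edgeR).

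For tobi, the dsxRNAi male libraries fell on both sides of the control males. They held 2747, 6273 and 3344 normalised CPM, against 5102, 4993 and 4949 in control males, which differed among themselves by only 1.57% (coefficient of variation). Libraries 1 and 3 lay below every control male library, and library 2 lay above them all. The log2 change over the 3 was -0.28 and was not called (95% interval -0.84 to 0.27, adjusted p = 0.4997 by edgeR). It was -0.71 and called lower when dsxRNAi male library 2 was left out (adjusted p = 0.0159 by edgeR). What sets that library apart was not tested.

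Of the 5 genes, 2 were thus called higher in dsxRNAi males and 0 lower. Over all tested genes 14.6% were called in this comparison, 8.05% higher and 6.59% lower. Group ranges did not overlap for 4 of the 5 genes, against 38.6% of all tested genes, and 4 had an unadjusted p under 0.05, against 29.4%. The median log2 change of the 5 genes was 0.77, the value of Amy-p, and that of all tested genes was -0.01. Amy-p and Amy-d may share reads and ran together over the 12 libraries (r = 0.996), so they are not separate observations. Counts and medians of the 5 genes carry that limit here and in the other comparisons. By DESeq2, 4 of the 5 were called, all higher: Amy-p, Amy-d, Amyrel and Treh. Among marker lists of other cell types, 4 of 9 enteroendocrine genes were lower in dsxRNAi males and 0 higher, with summed levels of 524 to 587 normalised CPM against 657 to 682 in control males. All 9 were detected in every library, and 2 or 3 were lower when any 1 male library was left out. Of 8 visceral muscle genes 1 was lower, with summed levels of 2066 to 2189 normalised CPM in dsxRNAi males and 2054 to 2117 in control males. Summed progenitor markers stood at 39.0 to 49.9 normalised CPM in dsxRNAi males, against 54.7 to 60.9 in control males, and hemocyte markers at 4.85 to 6.09 against 7.51 to 12.7. By edgeR 0 of 3 progenitor and 0 of 4 hemocyte genes were called, with 1 in each list at an unadjusted p under 0.05. DESeq2 called 1 lower in each list. Of 3 Malpighian tubule markers 1 was lower, by edgeR and by DESeq2, with summed levels of 1.00 to 4.68 normalised CPM in dsxRNAi males and 2.59 to 5.22 in control males. It was not called by edgeR without dsxRNAi male library 1 or 2 or control male library 3, and Uro, another of the 3, was at 0 in 4 of the 12 libraries. The enterocyte sums overlapped, at 826 to 956 normalised CPM in dsxRNAi males and 872 to 979.6 in control males. Among them mex1 alone, whose promoter drives Gal4 here, stood at 212 to 256 normalised CPM in dsxRNAi males, against 171 to 203 in control males, without overlap (log2 0.33, adjusted p = 0.0516 by edgeR). As shares of all counts before scaling, mex1 overlapped, at 0.0198% to 0.0221% in dsxRNAi males and 0.0177% to 0.0224% in control males. The part of these markers in the amylase result was not tested.

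**Figure D2:**
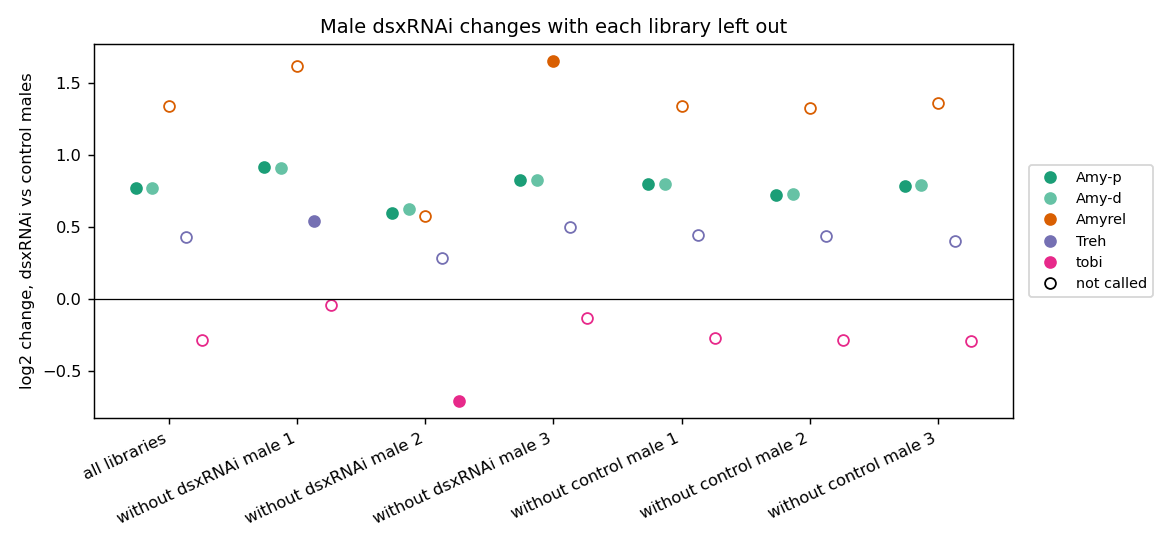
Fitted log2 change of each gene between dsxRNAi and control males (vertical axis), with all libraries and with each male library left out (horizontal axis); filled points passed an adjusted p of 0.05. Amy-p and Amy-d stay between 0.60 and 0.92 and are called throughout, while tobi is called, at -0.71, only without dsxRNAi male library 2.

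In females none of the 5 genes was called, and the amylase copies overlapped between dsxRNAi and control libraries. Amy-p stood at 11933, 13330.4 and 12872 normalised CPM in dsxRNAi females, against 9533, 12806 and 12075 in control females. The ranges overlapped, with a log2 change of 0.15 (95% interval -0.21 to 0.50, adjusted p = 0.773 by edgeR). Amy-d stood at 10215, 11280.4 and 10779 normalised CPM in dsxRNAi females, against 7757, 10574 and 9936 in control females (log2 0.19, 95% interval -0.14 to 0.53, adjusted p = 0.662 by edgeR).

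Amyrel and tobi were the genes whose dsxRNAi female libraries lay wholly below the control females. Amyrel had 28.3, 40.9 and 35.9 normalised CPM in dsxRNAi females, against 58.2, 56.2 and 90.5 in control females. Its log2 change was -0.96 (95% interval -1.93 to -0.0014, unadjusted p = 0.0497, adjusted p = 0.345 by edgeR). tobi had 4442, 3207 and 2987 normalised CPM in dsxRNAi females, against 4835, 4727 and 5411 in control females. Its log2 change was -0.49 (95% interval -1.05 to 0.06, adjusted p = 0.423 by edgeR). As shares of all counts before scaling, tobi overlapped: dsxRNAi female library 1 (0.456%) lay above control female library 2 (0.452%). Treh overlapped between the groups, with 767, 662 and 672 normalised CPM in dsxRNAi females and 905, 681 and 860.1 in control females (log2 -0.22, adjusted p = 0.525 by edgeR). The count of 0 among the 5 came with 1 gene, Amyrel, at an unadjusted p under 0.05, and DESeq2 called 0 as well. Over all tested genes 3.46% were called, 1.91% higher and 1.55% lower, and 14.4% had an unadjusted p under 0.05. Group ranges did not overlap for 2 of the 5 genes, against 17% of all tested genes. The median log2 change of the 5 was -0.22. Of 5 tested fat body markers 2 were lower in dsxRNAi females and 0 higher by edgeR. The count of lower genes was 0 without dsxRNAi female library 2 or 3, and 1 without control female library 1. The summed fat body markers stood at 19.3 to 48.2 normalised CPM in dsxRNAi females, against 81.4 to 148 in control females. Of 3 Malpighian tubule markers 0 were called by edgeR, with 2 at an unadjusted p under 0.05. Their sums were 1.64 to 1.89 normalised CPM in dsxRNAi females, against 3.59 to 6.998 in control females, without overlap. The part of both marker lists in the values of Amyrel and tobi was not tested.

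**Figure D3:**
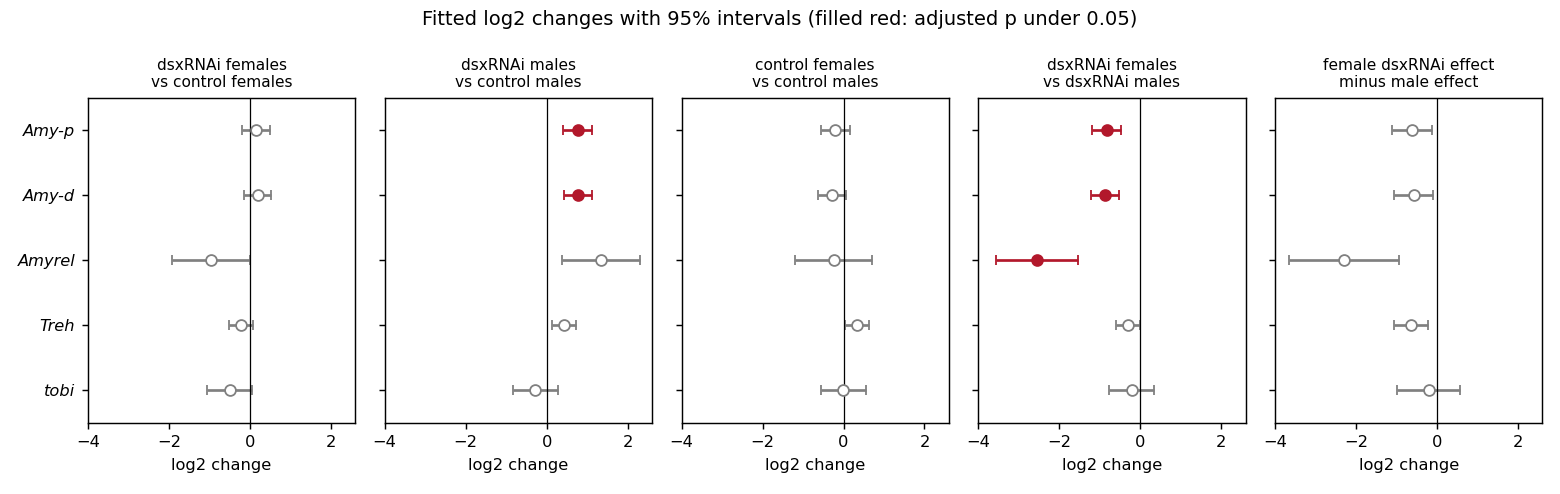
Fitted log2 changes (horizontal axis) of the 5 genes with 95% intervals in the 5 comparisons; filled red points passed an adjusted p of 0.05. The male dsxRNAi panel has Amy-p and Amy-d called at 0.77, the panel of dsxRNAi females against dsxRNAi males has Amy-p, Amy-d and Amyrel called, and the other panels have none.

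A direct test of whether dsxRNAi acted differently in females than in males called none of the 5 genes by edgeR. All 5 estimates, female log2 change minus male log2 change, were negative. They were -0.62 for Amy-p (adjusted p = 0.241), -0.58 for Amy-d (0.246), -2.31 for Amyrel (0.132), -0.65 for Treh (0.153) and -0.21 for tobi (0.847), all by edgeR. Unadjusted p-values were under 0.05 for 4 of the 5, against 14.3% of all tested genes, of which 0.805% were called, 0.258% positive and 0.547% negative. DESeq2 called 2 of the 5, Amyrel (adjusted p = 0.0205) and Treh (adjusted p = 0.0257). edgeR called Amyrel, at -1.55, when dsxRNAi male library 2 was left out (adjusted p = 0.0261). The median of the 5 was -0.62, and that of all tested genes was 0.02.

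Between the sexes, none of the 5 genes was called in controls, and Amy-p, Amy-d and Amyrel were lower in females where both sexes carried dsxRNAi. In control females against control males edgeR called 0 of the 5, where 20% of all tested genes were called, 10.7% higher and 9.27% lower. DESeq2 called 0 as well, and 1 gene, Treh, had an unadjusted p under 0.05, against 33.1% of all tested genes. Ranges did not overlap for 2 of the 5, against 37.4% of all tested genes. Treh was 1.26-fold higher in control females without overlap (815 ± 119 against 646 ± 21.3 normalised CPM, SD, n = 3, log2 0.34, adjusted p = 0.1003 by edgeR). It was called without control female library 2 (log2 0.47, adjusted p = 0.029 by edgeR). As a share of all counts before scaling, Treh in that library (0.0651%) lay below every control male library (0.0683% to 0.0701%). Amy-d lay lower in control females without overlap, at 9422 ± 1477 against 11478 ± 626 normalised CPM (log2 -0.28, adjusted p = 0.222 by edgeR). tobi averaged 4991 ± 368 normalised CPM in control females and 5015 ± 78.7 in control males, a log2 difference of -0.01 with a 95% interval of -0.56 to 0.55.

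Under dsxRNAi, 3 of the 5 genes were lower in females and 0 higher, where 7.06% of all tested genes were called lower, 7.76% higher and 14.8% in either direction. Ranges did not overlap for the same 3, against 35.7% of all tested genes, and 4 of the 5 had an unadjusted p under 0.05, against 30.9%. Amy-p averaged 12712 ± 712 normalised CPM in dsxRNAi females and 22526 ± 4935 in dsxRNAi males (log2 -0.83, adjusted p = 0.00705 by edgeR). Amy-d averaged 10758 ± 533 in dsxRNAi females and 19639 ± 3711 in dsxRNAi males (log2 -0.87, adjusted p = 0.00418 by edgeR). Amyrel averaged 35.0 ± 6.32 in dsxRNAi females and 205 ± 147 in dsxRNAi males, a 5.85-fold lower level in females (log2 -2.55, adjusted p = 0.00711 by edgeR). All 3 calls held without dsxRNAi male library 2, where the log2 differences were -0.64, -0.72 and -1.78. Treh (log2 -0.31, adjusted p = 0.138 by edgeR) and tobi (log2 -0.22, adjusted p = 0.603 by edgeR) overlapped between these groups. The estimate for tobi changed sign, to 0.22, without dsxRNAi male library 2 (adjusted p = 0.462 by edgeR). Of the marker lists, 4 of 9 enteroendocrine genes were lower in dsxRNAi females, with summed levels of 476 to 509 normalised CPM against 524 to 587 in dsxRNAi males. Of 5 fat body genes 3 were higher in dsxRNAi females, with sums of 19.3 to 48.2 normalised CPM against 2.90 to 11.2 in dsxRNAi males. Of 4 hemocyte genes 1 was higher, with sums of 6.48 to 13.2 against 4.85 to 6.09 normalised CPM in dsxRNAi males. Of 8 visceral muscle genes 0 were called, with 2 at an unadjusted p under 0.05, though the sums did not overlap, at 1816 to 2012 normalised CPM in dsxRNAi females and 2066 to 2189 in dsxRNAi males. The part of these markers in the amylase differences was not tested. The comparisons that use the same libraries, such as the male dsxRNAi effect and this one, are not independent of each other.

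In the order of levels over the 4 groups, dsxRNAi males stood first for Amy-p, Amy-d, Amyrel and Treh. For Amy-p and Amy-d, control males, dsxRNAi females and control females followed, and neighbouring groups among these 3 overlapped for both copies. For Amyrel the order went on with control males, control females and dsxRNAi females, where control males and control females overlapped and dsxRNAi females lay below both. For Treh it went on with control females, dsxRNAi females and control males, where each neighbouring pair overlapped except dsxRNAi females and control males. For tobi, control males and control females stood first and overlapped, followed by dsxRNAi males and dsxRNAi females, and each neighbouring pair overlapped.

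The proportion of the 2 amylase copies varied little between libraries. Amy-d made up 46.1%, 45.8% and 45.6% of the pair's counts in dsxRNAi females, against 44.9%, 45.2% and 45.1% in control females. It made up 47.2%, 45.9% and 46.9% in dsxRNAi males, against 46.3%, 46.6% and 46.6% in control males. The 95% Wilson interval of each share, which covers counting error only, reached at most 0.109 percentage points to either side. The share was lower in control females than in control males by 1.43 percentage points with no overlap (exact two-sided permutation p = 0.1, the smallest possible). It was higher in dsxRNAi females than in control females by 0.766 points, again with no overlap (exact permutation p = 0.1). In males the dsxRNAi and control libraries overlapped (difference 0.161 points, exact permutation p = 0.8), as did dsxRNAi females and dsxRNAi males (-0.829 points, exact permutation p = 0.2). Between dsxRNAi and control groups, sequence differences between the stocks could move reads between the copies, and their part was not tested. The control groups of both sexes carry the same labelled constructs, and what sets their splits apart was not tested. The split is unaffected by how libraries are scaled. Summed into 1 row, the pair was called in the same comparisons as each copy, at a log2 change of 0.77 in males (adjusted p = 0.00822 by edgeR).

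**Figure D4:**
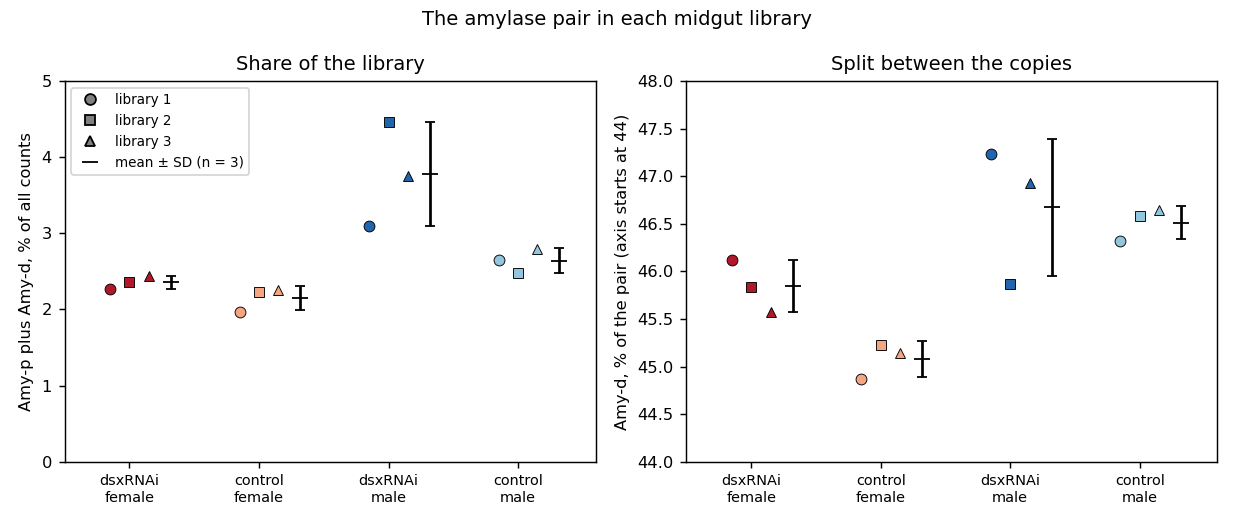
Left, Amy-p plus Amy-d as a percentage of all counts, from 0; right, Amy-d as a percentage of the pair, on an axis that starts at 44; symbols are libraries and bars mean ± SD of 3. The pair's share is highest in the dsxRNAi males, at 3.10% to 4.47%, while the split between the copies stays between 44.9% and 47.2%.

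Genes whose log2 levels ran most like each of the 5 over the 12 libraries were picked by Pearson's r, as a description that includes the group differences and library 2 of the dsxRNAi males. Amy-p and Amy-d were each other's closest match (r = 0.996). Next for Amy-p came SCOT, a mitochondrial enzyme of ketone body use (r = 0.978), and Gabat, GABA transaminase (r = 0.966), followed by CG4734 and Pgd. SCOT, Gabat, Pgd, of the pentose phosphate pathway, and CG10512 followed for Amy-d (r = 0.958 to 0.974). Amyrel ran closest to fbl, pantothenate kinase (r = 0.944), and to the maltase gene Mal-A4 (r = 0.934), before GSS, CG32495 and CG9394. The genes nearest to tobi were CG1208 (r = 0.922), Ada1-2, exu, Pglym78, a phosphoglycerate mutase of glycolysis, and RagC-D. Treh had looser matches, with CG7840 the closest (r = 0.899), then RhoGDI, CG31715, CG7739 and CG8435. Between tobi and Amy-p r was -0.05 over all libraries and -0.59 without dsxRNAi male library 2.

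The maltase gene Mal-A4, named by that likeness, had 953, 2775 and 822 normalised CPM in dsxRNAi males, against 640.1, 643 and 665 in control males, with library 2 the highest, a pattern that its choice by likeness to Amyrel favours. Its log2 change in males was 1.22 (adjusted p = 0.0798 by edgeR). In females it had 220 to 376 normalised CPM under dsxRNAi and 316 to 435 in controls (log2 -0.27, adjusted p = 0.852 by edgeR). Mal-A1, chosen after its values were seen as the maltase with the highest CPM, had 12688, 20167 and 12821 normalised CPM in dsxRNAi males, against 18982, 18959 and 18171 in control males. As for tobi, libraries 1 and 3 lay below every control male and library 2 above (log2 -0.30, adjusted p = 0.248 by edgeR).

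The 10 maltase genes, which act after amylase in starch digestion, were mostly lower in females. Of the 10, 7 were lower in control females than in control males and 0 higher (median log2 -0.72 over the list, -0.01 over all tested genes), where 9.27% of all tested genes were called lower. With any 1 library left out 5 or 6 were lower, and 1 was higher without control female library 3 and by DESeq2. In the same comparison 7 of 9 enteroendocrine markers were lower in control females. Their sums were 408 to 500.2 normalised CPM, against 657 to 682 in control males. Of 8 visceral muscle markers 3 were lower, with sums of 1621 to 2003 against 2054 to 2117. Both markers of the copper cell region, lab and Vha100-4, were higher in control females, with sums of 221 to 251 against 150 to 199. Of 5 fat body markers 3 were higher (sums 81.4 to 148 against 3.09 to 6.53), and of 4 hemocyte markers 1. The part of these markers in the maltase differences was not tested. Mal-A2 averaged 798 ± 28.2 normalised CPM in control females and 1294 ± 42.7 in control males (adjusted p = 0.00122 by edgeR). Mal-A3 averaged 659 ± 4.79 and Mal-A5 4.00 ± 0.43 in control females, against 1215 ± 73.0 and 7.16 ± 0.88 in control males (adjusted p = 0.00626 and 0.00404 by edgeR). In dsxRNAi against control males edgeR called 0 of the 10, with 4 at an unadjusted p under 0.05, and DESeq2 called 2 higher and 1 lower. edgeR called 1 higher and 3 lower without dsxRNAi male library 2, and 1 higher without library 3. In dsxRNAi against control females both tools called 0 of the 10, with 1 at an unadjusted p under 0.05. Where both sexes carried dsxRNAi, edgeR called 8 of the 10 lower in females and 0 higher, against 7.06% of all tested genes called lower. The median log2 difference was -0.71, and 9 had an unadjusted p under 0.05. DESeq2 called 9 lower. The edgeR count was 6 without dsxRNAi female library 1 or 2, and 4 without library 3. The part of the marker lists in this comparison was not tested either.

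Around trehalose, CG5171, a predicted trehalose phosphatase gene, had 2.45, 2.15 and 2.33 normalised CPM in dsxRNAi males, against 6.07 to 6.55 in control males. It was the 1 gene called in this comparison among the 4 tested of 6 listed. It was lower by 1.47 on the log2 scale (adjusted p = 0.000127 by edgeR), also without any 1 male library. In dsxRNAi against control females edgeR called 0 of the 4 and DESeq2 called 1 lower. Between the sexes 2 of the 4 were lower in females by edgeR, both in controls and under dsxRNAi. The count under dsxRNAi was 0 without dsxRNAi female library 1 or 2. For the female minus male effect edgeR called 1, with a positive estimate. CG33080, listed with tobi as a member of its enzyme family, was 1.44-fold lower in control females than in control males (168 ± 19.2 against 242 ± 8.41 normalised CPM, adjusted p = 0.00146 by edgeR). It was not called for dsxRNAi in either sex.

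Of 6 tested sugar transport genes 2 were higher in dsxRNAi males and 0 lower. nebu, listed in the table as CG10960, had 137, 236 and 151 normalised CPM in dsxRNAi males, against 77.5, 65.2 and 71.0 in control males (log2 1.29, adjusted p = 0.000699 by edgeR), with library 2 the highest as for the amylases. sut3 was also called, at 0.749 ± 0.176 normalised CPM in dsxRNAi males and 0.219 ± 0.119 in control males (adjusted p = 0.0297 by edgeR), and in females too (adjusted p = 0.0227 by edgeR). It was scarce, with at most 61 counts in any library. The female count of 1 was 0 without dsxRNAi female library 1 or 3, or without control female library 2 or 3. In males the count of higher genes was 1 without dsxRNAi male library 1 or 2, or without control male library 1 or 2, and 1 gene was lower without dsxRNAi male library 2.

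**Figure D5:**
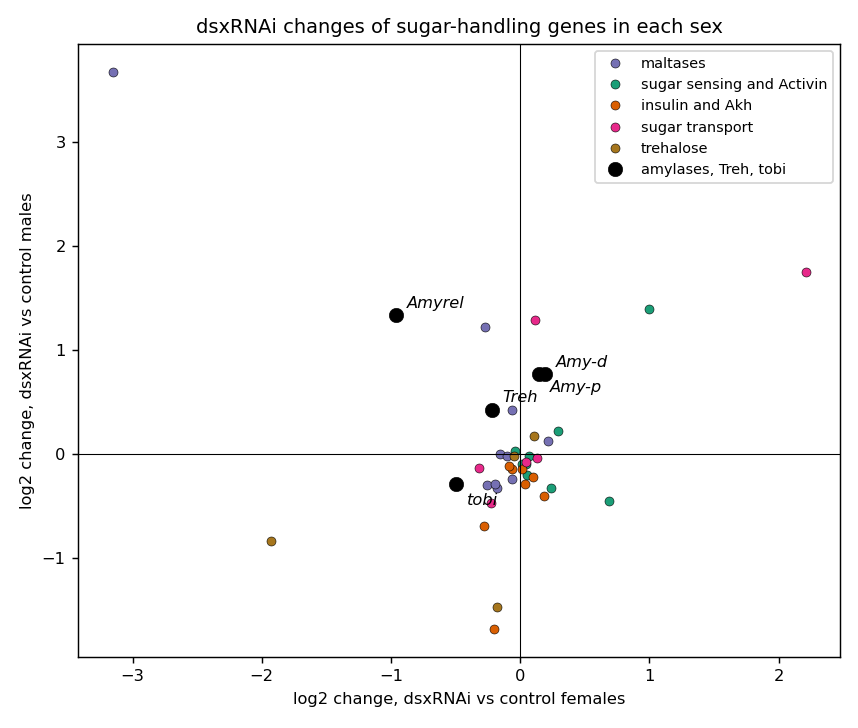
Fitted log2 change under dsxRNAi in females (horizontal axis) and in males (vertical axis) for the 5 genes, in black and named, and for listed sugar-handling and signalling genes, coloured by list. Amy-p and Amy-d lie at 0.77 on the male axis and under 0.2 on the female axis, and Amyrel lies at -0.96 and 1.34. The maltase point at the upper left is Mal-B1, with at most 46 counts in any library and not called in either sex.

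Of 9 genes of sugar sensing and Activin signalling, edgeR and DESeq2 called 0 for dsxRNAi in males and 0 in females, with 1 at an unadjusted p under 0.05 in each sex. In males 1 was lower by edgeR without dsxRNAi male library 3. sug and daw are given for their known roles, chosen after their values were seen. sug, for the factor Sugarbabe, averaged 118 ± 50.5 normalised CPM in dsxRNAi males and 161 ± 49.1 in control males (log2 -0.45, adjusted p = 0.44 by edgeR). daw, the Activin ligand, averaged 40.4 ± 16.0 in dsxRNAi males and 15.4 ± 4.48 in control males (log2 1.39, adjusted p = 0.184 by edgeR). bigmax, the partner of Mondo, was higher in control females than in control males (28.5 ± 3.74 against 19.0 ± 0.866 normalised CPM, adjusted p = 0.00226 by edgeR). There 2 of the 9 were called, both higher in females. In dsxRNAi females against dsxRNAi males 4 of the 9 were higher by edgeR and 0 lower, against 7.76% of all tested genes called higher. In that comparison 8 of the 9 had an unadjusted p under 0.05. The count was 2 without dsxRNAi female library 3.

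Of 10 genes in the insulin and Akh list 8 were tested. Neither receptor was among them: InR was not matched by symbol, and AkhR had at most 8 counts in any library. In dsxRNAi males 3 of the 8 tested genes were lower and 0 higher. They were foxo, the transcription factor that insulin holds out of the nucleus (140 ± 9.27 normalised CPM in dsxRNAi males against 185 ± 9.42 in control males, adjusted p = 0.0224 by edgeR), Thor, the 4E-BP translation inhibitor and foxo target (326 ± 75.3 against 524 ± 59.7, adjusted p = 0.0276 by edgeR), and ImpL2, a secreted insulin antagonist (8.15 ± 2.95 against 26.1 ± 8.41, adjusted p = 0.0349 by edgeR). The count was 0 without dsxRNAi male library 2, dsxRNAi male library 3 or control male library 2, and 1 without control male library 3. In females 0 of the 8 were called by either tool, and 0 had an unadjusted p under 0.05. In dsxRNAi females against dsxRNAi males 3 of the 8 were higher and 0 lower by edgeR, with 5 at an unadjusted p under 0.05. That count was 1 without dsxRNAi female library 2 and 0 without dsxRNAi female library 3. Of 6 tested JAK-STAT genes, a pathway known to set male-high sugar gene expression in the posterior midgut, 0 were called for dsxRNAi in either sex by edgeR or DESeq2, with 1 at an unadjusted p under 0.05 in males and 0 in females. Between the sexes 1 of the 6 was higher in females and 0 lower by edgeR, both in controls and under dsxRNAi. The control count was 2 by DESeq2 and 0 by edgeR without control female library 3. Under dsxRNAi it was 0 without any 1 dsxRNAi female library.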

How the data were processed

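RNA from adult midguts was sequenced as polyA-selected, directional, paired-end libraries, and the authors deposited whole-number counts per gene for 12 libraries. Per the submitters' processing notes, TopHat2 2.0.11, featureCounts and build dm6 were used. For the counting's strand setting, the annotation release and any filter, the sources used here give nothing. The 5 genes and the comparison lists were chosen with earlier results of these data known. Genes passing edgeR's expression filter at a minimum count of 10 were kept, 9686 of 17558. Rows without a symbol, 171 holding 2.17% of counts, stayed in the fit. The main test was edgeR 4.0.16 in R 4.3.3: quasi-likelihood with robust dispersion, TMM scaling, 4 group means without a replicate block, 5 comparisons, and Benjamini-Hochberg adjustment over all tested genes, called under 0.05. Log2 changes carry a prior count of 0.125, and standard errors were derived from the F statistic. Means ± SD are over normalised CPM computed here. Single values were tested by exact two-sided permutation in scipy 1.17.1 under Python 3.11.15; 3 libraries against 3 cannot go below p = 0.1. Figures used matplotlib 3.10.9. Positions come from an Ensembl annotation of the same assembly.

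Named were all 5 genes, up to 3 called genes per list and comparison by smallest adjusted p, and the 5 genes most correlated with each member. Alternatives were DESeq2 1.42.0, other scaling, filters, thresholds, dispersion and group choices, the replicate block, summed amylase counts, and each library left out. List counts by DESeq2 and by leaving out libraries were added after seeing the data. The test was checked on simulated data. Replicates differed by more than counting noise. Intervals cover counting error only where they are Wilson intervals.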

Additional observations from a re-analysis of the deposited data

Results flagged for a closer look

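Amyrel was picked out because its libraries lay on opposite sides of the controls in the sexes, though neither sex's change passed the test (adjusted p = 0.345 in females and 0.0679 in males by edgeR). All 3 dsxRNAi female libraries lay below all 3 control females, and all 3 dsxRNAi male libraries lay above all 3 control males. The female minus male log2 change was -2.31 (95% interval -3.67 to -0.94). The test of this difference did not pass by edgeR with all libraries (unadjusted p = 0.00395, adjusted p = 0.132). It passed by DESeq2 (adjusted p = 0.0205), and by edgeR at -1.55 without dsxRNAi male library 2 (adjusted p = 0.0261). These p-values come from the libraries on which the gene was picked and are no separate support.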

How the results depend on the processing

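Among all tested genes, dsxRNAi against control females gave 335 calls, against 601 by DESeq2, 221 with only the groups compared, 160 at an adjusted p under 0.01 and 204 to 360 with 1 library left out. dsxRNAi against control males gave 1418, against 670 at 0.01 and 856 to 1195 with 1 library left out. Control females against control males gave 1937, against 1018 at 0.01 and 1325 to 1890 with 1 left out. dsxRNAi females against dsxRNAi males gave 1436, against 455 at 0.01 and 637 to 1145 with 1 left out. The female minus male effect gave 78, against 343 by DESeq2, 22 at 0.01 and 33 to 127 with 1 left out. Of the 5 genes, 2 were called in males, against 4 by DESeq2, 1 with the amylase copies summed into 1 row, and 2 to 3 with 1 library left out. For the female minus male effect the count was 0, against 2 by DESeq2 and 0 to 1 with 1 left out, and for control females against control males it was 0, against 0 to 1. tobi changed sign in control females against control males, to 0.0114 with no expression filter (range -0.0667 to 0.0478 with 1 library left out). It did so in dsxRNAi females against dsxRNAi males (range -0.45 to 0.22) and in the female minus male effect (range -0.46 to 0.21), without dsxRNAi male library 2. The cause was not tested. Treh in males was called with RLE scaling (adjusted p = 0.0485 by edgeR) and at a minimum count of 50 (0.0494), and Amyrel in males without robust dispersion (0.0358). Amyrel in dsxRNAi females against dsxRNAi males was lost with only the groups compared (adjusted p = 0.0582 by edgeR). With the replicate block the calls among all genes were 328, 1452, 1994, 1468 and 67 in the order above, and the 5 genes' counts were 0, 2, 0, 3 and 0. Deviations of same-numbered libraries correlated at -0.299 to 0.208, not over 0.1 in every pair of any 2 groups compared here, so the fit without the block was kept. In dsxRNAi females and control males, all 3 same-numbered pairs correlated at 0.156 to 0.208 and the others were negative. These groups were not compared directly, but both enter the female minus male effect. Deviations cancel within each group, so the negative values follow in part from the positive ones. This is a hint from the data that leaves any sharing behind the numbers unknown. The fit of only the groups compared does not apply to the female minus male effect.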

Other observations

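Around the amylase pair, asRNA:CR45272, annotated between the copies, averaged 17.1 normalised CPM over the 12 libraries. Its log2 change under dsxRNAi was 0.49 in females (adjusted p = 0.260 by edgeR) and 0.48 in males (adjusted p = 0.122 by edgeR). CG15611, beyond Amy-p, averaged 50.9 normalised CPM and had log2 changes of -0.30 in females (adjusted p = 0.0529 by edgeR) and -0.16 in males (adjusted p = 0.189 by edgeR). As deviations from group means, Treh and tobi ran together over the 12 libraries (r = 0.811, and 0.694 without dsxRNAi male library 2), while Amy-p and Treh did not (r = 0.200 and -0.25). These correlations describe libraries that share scaling and processing.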
